A study of Mus musculus with 17 samples.

Results

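The genes described here encode acute-phase and antimicrobial secreted proteins and were taken by name: Lcn2, Saa1, Saa2, Saa3, Slpi, Wfdc2, Pigr, Ltf, S100a8 and S100a9. They are 10 of the 55450 genes in the bulk table. The set was chosen by function and selected on TPM levels in these same libraries, which were already known, so the levels, folds and counts of the 10 genes are given as a description, with no test. The study asked how metastatic cells from different organs of 1 mouse model differ. It used female FVB/NJ mice that carry the MMTV-PyMT transgene, in which the polyoma middle T oncogene is driven by the mouse mammary tumor virus promoter, and all groups share that transgene. Cell lines were grown from the primary tumor in the mammary fat pad (MFP) and from metastases in bone marrow (BM), lymph node (LN) and lung, and the metastatic lines were sorted into CD44low and CD44high cells. The 7 bulk groups are MFP, which has no CD44 label, and LN, BM and Lung CD44low and CD44high, with 2 libraries each, and the 2 libraries of a group are separate clonal isolates from different mice. A further 3 single-cell libraries hold Lung CD44high (lungH), Lung CD44low (lungL) and LN CD44high (lymphH) cells, 1 library each.

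The cells were cultured and sorted as EpCAMhigh according to the methods of the study, and the level of Epcam, the sorting antigen, was checked first. It was 315 to 941 TPM (transcripts scaled by length and to the same total in each library) in the 10 MFP, LN and BM libraries and 0 to 0.86 TPM in the 4 lung libraries. A list of 12 epithelial genes summed to at least 2269 TPM outside the lung, to at most 2.67 TPM in Lung CD44low and to 15.99 and 87.7 TPM in Lung CD44high, while 11 fibroblast genes summed to 4789 and 5230 TPM in Lung CD44low. In Lung CD44high the keratins Krt18 (10.1 and 58.9 TPM) and Krt8 (5.26 and 27.8 TPM) made up most of that sum, next to at least 287 and 498 TPM outside the lung. The lung lines thus had far lower levels of these epithelial markers than the other lines, and whether this bears on the genes below was not tested. Most of the fibroblast sum in Lung CD44low was Dcn (4091 and 4315 TPM), and 9 of the 11 genes reached 1 TPM in both libraries. The fibroblast sum in Lung CD44high lay between 103 and 216 TPM, again mostly Dcn, next to at most 46.2 TPM outside the lung. In bulk samples fewer cells of a type and less RNA per cell cannot be told apart. The number of reads behind each TPM value is unknown. Each library had between 11508 and 13052 genes at 1 TPM or more.

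Acute-phase proteins are secreted when infection or injury raises inflammatory cytokines such as interleukin 6 and interleukin 1. These act through STAT3, NF-kB and the C/EBP factors, mainly in the liver but also in epithelia. Lcn2 (lipocalin 2) binds bacterial siderophores and so withholds iron. The serum amyloid A proteins Saa1, Saa2 and Saa3 are lipid-binding acute-phase proteins, and Saa3 is the one made mostly outside the liver. Slpi and Wfdc2 belong to the whey acidic protein (WAP) family, and Slpi inhibits serine proteases. Pigr carries polymeric antibodies across mucosal epithelia, Ltf (lactotransferrin) binds iron in milk and other secretions, and S100a8 and S100a9 are partner subunits of calprotectin, an abundant neutrophil protein.

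The 3 Saa genes lie within 1 cluster on mouse chromosome 7 (mm10), with Saa3 at chr7:46711998-46715700 on the minus strand, Saa1 at chr7:46740497-46742980 on the minus strand and Saa2 at chr7:46751790-46754313 on the plus strand. Saa1 and Saa2 stand 8.8 kb apart and are near copies: their transcripts are 94.4% identical over 606 aligned bases, and 22.8% of the 31-base words of Saa1 also occur in Saa2. Reads could be split between them, so their separate levels are uncertain. Saa3 shares no 31-base word with either and is 80.8% identical to Saa1. Lcn2 lies at chr2:32384633-32388252 (minus), Slpi at chr2:164354070-164389095 (minus), Wfdc2 at chr2:164562413-164568510 (plus), Pigr at chr1:130826684-130852249 (plus) and Ltf at chr9:111019271-111042767 (plus). S100a8 at chr3:90668978-90670035 (plus) and S100a9 at chr3:90692632-90695721 (minus) are 22.6 kb apart. In the annotation 1 of the 10 genes, Slpi, shares exon sequence with another gene, the microRNA gene Mir7678.

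The sequences upstream of the Saa genes are shown because these genes had their highest level in the same group, BM CD44high. Lcn2, Slpi, Pigr, Ltf and S100a8 had their highest mean TPM in that group as well. The lines below give bases -250 to -51 before the RefSeq transcription start, 5′ to 3′ on the strand of the gene, from GRCm38.p6. Capitals mark the match to a C/EBP motif spelled TTGCNNAA, searched on both strands. The Saa1 stretch is chr7:46743031-46743230 (minus), that of Saa2 chr7:46751583-46751782 (plus) and that of Saa3 chr7:46715727-46715926 (minus).
Saa1: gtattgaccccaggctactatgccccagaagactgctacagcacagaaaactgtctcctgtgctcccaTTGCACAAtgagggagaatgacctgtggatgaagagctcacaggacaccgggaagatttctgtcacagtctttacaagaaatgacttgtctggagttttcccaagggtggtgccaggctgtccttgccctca
Saa2: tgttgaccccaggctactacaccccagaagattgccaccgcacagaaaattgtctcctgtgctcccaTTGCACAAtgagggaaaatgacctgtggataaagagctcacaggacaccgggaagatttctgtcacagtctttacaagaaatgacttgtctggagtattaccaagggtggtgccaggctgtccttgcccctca
Saa3: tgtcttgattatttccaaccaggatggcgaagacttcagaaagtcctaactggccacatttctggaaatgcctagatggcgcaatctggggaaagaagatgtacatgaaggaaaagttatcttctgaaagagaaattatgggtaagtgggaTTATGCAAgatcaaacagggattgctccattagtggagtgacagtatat
The motif stood at -182 to -175 in Saa1, at -183 to -176 in Saa2 and, on the opposite strand, at -99 to -92 in Saa3. The 250 bases before the start were 95.6% identical between Saa1 and Saa2 and 64.4% between Saa1 and Saa3. All 10 genes had an entry in the RefSeq promoter table, and for Wfdc2, which has 2, the first was searched. The C/EBP motif was present in the 250 bases of 7 of the 10 genes, namely the Saa genes, Lcn2, Slpi, Ltf and S100a9, and of 10.8% of the 27025 genes in that table, counting any window of a gene (9.56% of its 32851 windows). Of bases -250 to -51, 147 of 200 in Lcn2, 96 in Wfdc2 and 43 in S100a8 lie in an annotated exon, so these windows are not purely upstream sequence. The same bases of Slpi, at chr2:164356558-164356757, lie outside its exons but within the annotated gene. A TATA motif spelled TATAAA was found in S100a8, at -30 to -25, and in 14.3% of all genes. The NF-kB consensus (in 4.46% of all genes) and a STAT motif spelled TTCNNNGAA (in 8.13%) had no match in the windows of the 10 genes, searched on both strands. These are matches of letters and no evidence of binding.

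**Figure D1:**
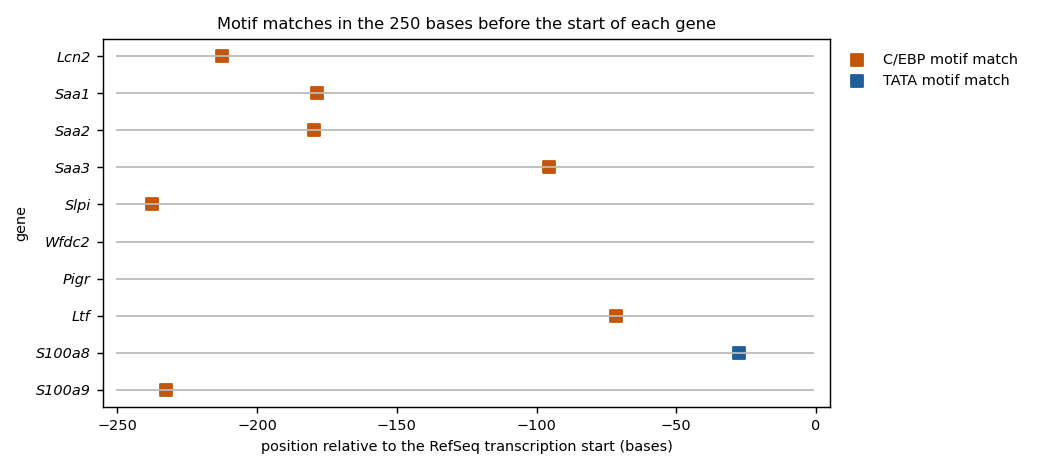
Positions of motif matches in the 250 bases before the RefSeq start of each of the 10 genes (x axis, bases relative to the start; grey line, window searched; squares, matches on either strand). A C/EBP motif is present in 7 windows at differing distances, and a TATA motif in that of S100a8.

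Lcn2 had the highest TPM of the 10 genes in all LN CD44high, BM and Lung CD44low libraries. Its level was 12527 and 6172 TPM in BM CD44high, where it ranked 6 and 14 among all genes of the library. It was 3753 and 2686 TPM in LN CD44high and 2734 and 2609 TPM in BM CD44low. These libraries were all far above the rest. In LN CD44low Lcn2 was 45.96 and 296 TPM, and in MFP 356 and 36.7 TPM. Lung CD44low held 275 and 130.4 TPM, and Lung CD44high 3.63 and 6.49 TPM. BM CD44high stood above all other groups and Lung CD44high below all others, without overlap. LN CD44high overlapped BM CD44low, and the ranges of MFP, LN CD44low and Lung CD44low overlapped. In the limma fit described below, Lcn2 was higher in BM CD44high than in MFP by 6.24 on the log2(TPM + 1) scale (SE 1.04), and lower in Lung CD44high by -4.30 (SE 1.04). With 1 library left out, the first ranged from 4.62 to 7.87 and the second from -5.92 to -2.68, both ends set by the MFP libraries.

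The Saa genes had a narrower pattern than Lcn2. Saa3 was 827 and 317 TPM in BM CD44high and between 0.48 and 11.2 TPM in the other 12 libraries. Its next highest group was BM CD44low with 9.15 and 11.2 TPM, so that the mean of BM CD44high was 56.3 times higher (log2 difference 5.53, SE 0.51, and 4.84 to 6.22 with 1 BM CD44high library left out). Saa1 was 20.8 and 9.33 TPM in BM CD44high, 0.47 and 0.46 TPM in BM CD44low, 0.13 TPM in 1 Lung CD44low library and listed at 0 in the other 9. Saa2 was 22.4 and 9.74 TPM in BM CD44high and at most 0.57 TPM elsewhere. Saa1 and Saa2 reached the 1 TPM needed to enter the fit only in the 2 BM CD44high libraries. For all 3 genes the BM CD44high libraries stood far apart from the rest, and the other groups lay near the lower end of the scale. A list of 7 hepatocyte genes was listed at 0 in both BM CD44high libraries.

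The WAP-family genes were high in MFP as well. Slpi was 1357 and 1275 TPM in MFP, 3889 and 1657 TPM in BM CD44high, 642 and 474 TPM in LN CD44high and 555 and 373 TPM in BM CD44low. LN CD44low had 225 and 93.5 TPM, followed by 139.8 and 103 TPM in Lung CD44low and by 21.1 and 16.8 TPM in Lung CD44high. BM CD44high and MFP did not overlap, and Slpi was lower than MFP in each of the other 5 groups without overlap. Wfdc2 had its highest mean TPM in MFP, with 1070.2 and 679.9 TPM, and ranged from 302 to 706 TPM across the 8 libraries of LN and BM. It was 0.39 and 0.21 TPM in Lung CD44low, and 0.35 and 0 TPM in Lung CD44high. Wfdc2 was the only one of the 10 genes whose 4 lung libraries all lay below all 8 LN and BM libraries, and the fitted difference was -8.54 (SE 0.17). Among the other lines Wfdc2 was lower than in MFP without overlap in LN CD44low (-1.29, SE 0.28) and BM CD44low (-1.33, SE 0.28), and MFP overlapped both CD44high groups.

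Pigr and Ltf were low but graded. Pigr was 37.3 and 9.11 TPM in BM CD44high, 7.31 and 4.07 TPM in BM CD44low, and 9.13 and 1.43 TPM in LN CD44high. It was at most 0.18 TPM in MFP and LN CD44low and listed at 0 in the 4 lung libraries. Ltf was 26.6 and 7.26 TPM in BM CD44high, 6.72 and 3.34 TPM in BM CD44low, 6.07 and 3.13 TPM in LN CD44high, 0 to 1.07 TPM in MFP and LN CD44low, and listed at 0 in the lung. For both genes BM CD44high lay above all other groups, except that its lower Pigr library, at 9.11 TPM, lay just below 1 LN CD44high library at 9.13 TPM. BM CD44low and LN CD44high overlapped.

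The calprotectin genes did not go together. S100a8 was 325 and 39.5 TPM in BM CD44high and 15.9 and 136 TPM in Lung CD44high, and these groups overlapped. It was 13.1 and 22.4 TPM in BM CD44low and at most 6.36 TPM in the other 8 libraries. The 2 libraries of both high groups were over 8-fold apart, so the order of these groups is not settled by these data. The difference of BM CD44high from MFP, 4.74 (SE 1.09), was 3.24 without BM CD44high replicate 1 and 6.25 without replicate 2. S100a9 was listed at 0 in 12 libraries and at 0.31 TPM in 1 MFP and 1 LN CD44low library, and was left out of the fit. Of the 10 neutrophil marker genes, none reached 1 TPM in both BM CD44high or both Lung CD44high libraries, and their sum was 1.64 and 4.40 TPM in BM CD44high and at most 0.04 TPM in Lung CD44high.

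**Figure D2:**
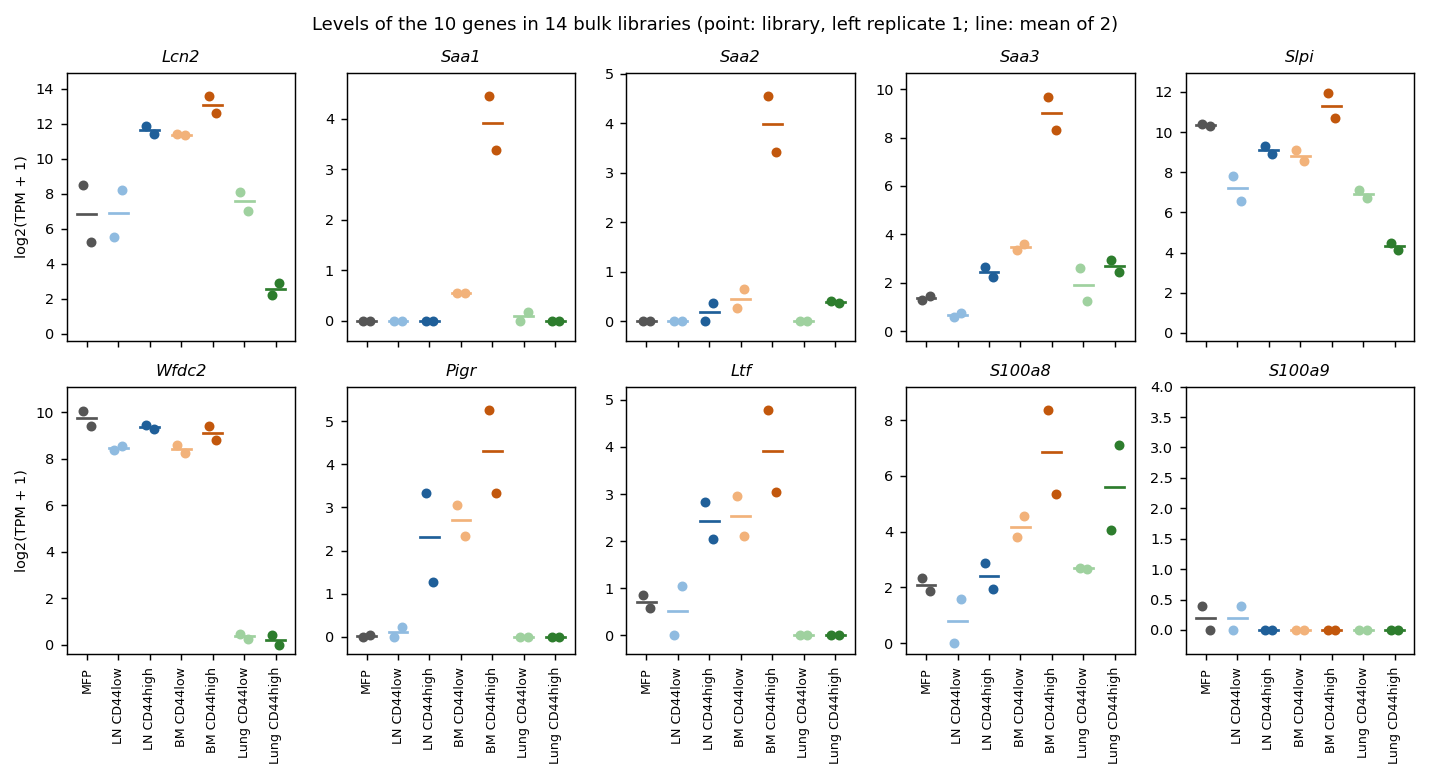
Levels of the 10 genes in the 14 bulk libraries, as log2(TPM + 1) (y axis, own scale for each gene), by group (x axis), with a point for each library and a line for the mean of 2. The Saa genes are high in BM CD44high, Wfdc2 is near 0 in the lung groups, and S100a9 is near 0 throughout.

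The groups were compared with limma on log2(TPM + 1) over the 15348 genes that reached 1 TPM in 2 or more libraries, fitted as 7 group means, and 9 of the 10 genes entered the fit. A gene passed with an absolute log2 difference over 2 and a Benjamini-Hochberg adjusted p, over all genes, under 0.05. Compared to MFP, 7 genes were higher past both limits in BM CD44high (Lcn2, Saa1, Saa2, Saa3, Pigr, Ltf and S100a8), where 3.64% of all genes were. In BM CD44low 3 were (Lcn2, Saa3 and Pigr), against 3.99% of all genes, and in LN CD44high 2 were (Lcn2 and Pigr), against 2.44%. In LN CD44low, Slpi alone was lower, against 2.72% of all genes. In Lung CD44low, Slpi and Wfdc2 were lower (7.62% of all genes), and in Lung CD44high Lcn2, Slpi and Wfdc2 were lower (8.03%) and S100a8 was higher (5.42%). The S100a8 difference there, 3.48 (SE 1.09), was 1.97 and no longer past the limits without Lung CD44high replicate 2. In Lung CD44low and CD44high the differences were -3.44 and -6.05 for Slpi and -9.36 and -9.52 for Wfdc2, while Saa1, Saa2 and Pigr had a mean of at most 0.31 TPM in the lung groups and in MFP. The choice of the genes used these values, so no more is read from the counts, and the 6 comparisons share the MFP libraries. Without MFP replicate 2, none of the 9 genes passed in BM CD44low or in LN CD44high, and none in LN CD44high without its replicate 1. Without MFP replicate 1, 1 passed in BM CD44low, 1 in LN CD44high and 2 in Lung CD44high. When only the groups compared were fitted, 4 passed in BM CD44high (Saa1, Saa2, Saa3 and Pigr), 1 in BM CD44low (Pigr), none in either LN group and 2 in each lung group (Slpi and Wfdc2).

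Within an organ, CD44high was compared with CD44low cells in an unpaired fit. Whether libraries with the same replicate number share a mouse is not known from the labels. In BM, 9 of 9 genes had both CD44high libraries above both CD44low libraries, beside 7.13% of all genes. Past both limits were Saa1, Saa2 and Saa3, where 0.0521% of all genes were higher. Saa1 and Saa2 entered the fit only through BM CD44high, where they are high, so their calls there, against MFP as well, were fixed by the filter and the choice of the set. A fit of only the BM groups called 0 of the 9 genes and 0 of all genes, and without BM CD44low replicate 1 the calls among all genes went from 16 to 975, so the share of all genes depends on that library and on the fit. Lcn2 was 3.5 times, Slpi 5.98 times, Pigr 4.08 times, Ltf 3.37 times and S100a8 10.3 times higher in the mean TPM of BM CD44high. Wfdc2 differed least, at 1.66 times. BM CD44high replicate 1 was above replicate 2 for 9 of 9 genes, by a median of 2.35 times, so the size of these folds depends on that library. In LN, 7 of 9 genes were higher in both CD44high libraries, beside 10.2% of all genes, and none passed both limits, beside 0.117% of all genes called higher. The largest difference there was that of Lcn2, 4.75 (SE 1.04), an 18.8-fold difference in mean TPM. It was 3.42 without LN CD44low replicate 1 and 6.08, then past both limits, without LN CD44low replicate 2. In lung, Lcn2 (-5.02, SE 1.04) and Slpi (-2.61, SE 0.47) were lower in CD44high past both limits, where 8.8% of all genes were, and 1 of these passed without Lung CD44low replicate 1. S100a8 (2.91, SE 1.09) and Saa2, listed at 0 in Lung CD44low, were higher without overlap, beside 30.3% of all genes. Lcn2 and Slpi therefore stood in opposite order in lung and in the other organs.

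**Figure D3:**
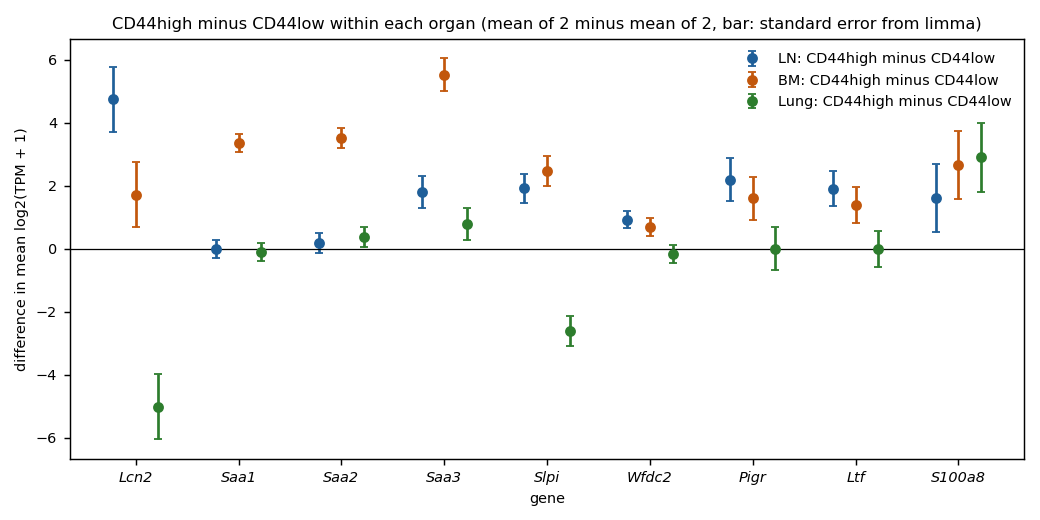
CD44high minus CD44low in each organ for the 9 fitted genes (y axis, difference in mean log2(TPM + 1); bars, standard error from limma; 2 libraries per group). All 9 BM points lie above 0, and the lung points of Lcn2 and Slpi lie at -5.02 and -2.61.

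The 2 Lung groups were also set against the 4 LN and BM groups. Lcn2 (-5.69, SE 0.63), Slpi (-3.50, SE 0.29), Wfdc2 (-8.54, SE 0.17), Pigr (-2.36, SE 0.42) and Ltf (-2.35, SE 0.35) were lower in lung past both limits, where 5.54% of all genes were. Of these, the libraries did not overlap for Wfdc2, beside 12.6% of all genes that were lower without overlap. S100a8 had a difference of 0.58 (SE 0.67), which was -0.18 without Lung CD44high replicate 2. When TPM was rescaled by the median ratio of libraries, the median of all genes shifted by 0.19, 0.32, 0.15 and 0.37 for LN CD44low, LN CD44high, BM CD44low and BM CD44high against MFP, by 0.13 and 0.20 for CD44high against CD44low in LN and BM, and by -0.21 for lung against LN and BM. The share of calls that were higher moved from 39.9% to 58.6% in LN CD44high, from 47.4% to 64.9% in BM CD44high, from 56.2% to 69.2% between the LN groups and from 56.3% to 45.6% for lung against LN and BM. It moved less, from 43.3% to 52.3% in LN CD44low, from 55.7% to 65.4% in BM CD44low and from 50% to 60% between the BM groups. Of the 9 fitted genes, 1 difference turned its sign under this scaling, that of Wfdc2 in LN CD44high against MFP, from -0.36 to 0.18.

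The genes that induce, regulate or accompany the acute-phase response were taken from 7 lists of 150 genes, of which 84 were fitted, and p-values are adjusted over all 15348 genes. These lists too were chosen with earlier results known, so the p-values describe single genes and the lists give no independent support. The counts below are of fitted genes only. A gene high in a single group could enter the fit through that group, and its call there was then fixed by the filter. Compared to MFP, 5 of 11 other acute-phase genes rose in BM CD44high and none fell, where 3.64% of all genes rose and 4.03% fell. Lbp, which binds bacterial lipopolysaccharide, rose by 7.29 (SE 0.60, adjusted p = 2.34e-05), from 0.25 and 0 TPM in MFP to 269 and 112 TPM. Hp (haptoglobin) rose by 3.79 (SE 0.46, adjusted p = 0.000292) and Cp (ceruloplasmin) by 2.93 (SE 0.38, adjusted p = 0.00044). Complement C3 rose by 2.33 (adjusted p = 0.00369) and lost its call without BM CD44high replicate 1, at 1.96, and without MFP replicate 2, at 1.93. The median of the 11 genes was 0.33, beside -0.34 over all genes. Lbp and Cp also rose in BM CD44low and LN CD44high, by 5.85 and 2.54 and by 5.69 and 2.30, and Cp lost both calls without MFP replicate 2. Lbp also rose in LN CD44low (3.43, adjusted p = 0.00374) and, in a call lost without either MFP library or Lung CD44high replicate 1, in Lung CD44high (2.03, adjusted p = 0.0233). The peptidoglycan-binding protein Pglyrp1 rose by 6.49 (adjusted p = 0.000216) and the WAP-family gene Wfdc18 by 7.96 (adjusted p = 2.3e-06) in BM CD44high. Pglyrp1 also rose in BM CD44low (5.90) and LN CD44high (5.52), and Wfdc18 in BM CD44low (8.14), LN CD44high (7.48) and LN CD44low (4.35), with adjusted p from 2.24e-06 to 0.000675. In fits of only the groups compared, the calls of Lbp and Wfdc18 in LN CD44low and of Cp in BM CD44low and LN CD44high were lost (adjusted p = 0.138, 0.0739, 0.103 and 0.0755). In BM CD44high, Wfdc18 reached 700.04 and 429 TPM, next to 2.15 and 0.54 TPM in MFP. Of the other antimicrobial, WAP-domain, S100 and receptor genes, 2 of 6, 2 of 5, 2 of 11 and 1 of 7 rose in BM CD44high and none fell.

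Of the inducing cytokines, some were listed at 0 in BM and LN and others were not. Il6 was listed at 0 in all BM and LN CD44high libraries, and Il1b, Osm, Il17a and Il22 were listed at 0 in all 8 LN and BM libraries. Il1a fell in all 6 groups, by -4.26 (adjusted p = 5.26e-06) in BM CD44high, from 28.5 and 13.9 TPM in MFP, and its call in LN CD44low was lost in a fit of only those groups (adjusted p = 0.0523). Of 21 fitted cytokines and receptors, 3 rose and 3 fell in BM CD44high, with a median of 0.08. The alarmin Il33 rose most, by 4.67 (adjusted p = 0.0147), from 0.45 and 0.30 TPM in MFP to 42.6 and 27.2 TPM, and by 4.38 (adjusted p = 0.0221) in BM CD44low, and each call was lost when any 1 of the libraries compared was left out. Tnf was 5.91 and 1.79 TPM in BM CD44high and 0.55 and 0.70 TPM in MFP, a difference of 1.44 under the limit on the fold. The interleukin 1 antagonist Il1rn rose by 2.79 (adjusted p = 0.00415). Among the 23 regulators, 2 rose and 1 fell in BM CD44high. Socs3, a feedback inhibitor and target of STAT3, rose by 3.33 (adjusted p = 0.00025), and Ehf, an epithelial ETS factor, by 3.64 (adjusted p = 0.00196). Socs3 also rose in LN CD44low (2.21), LN CD44high (2.87) and BM CD44low (3.24), and Ehf in LN CD44high (3.31) and BM CD44low (3.31). Between BM CD44high and BM CD44low, Socs3 differed by 0.09 and Ehf by 0.34, and neither passed. Elf3, another epithelial ETS factor, fell by -2.25 (adjusted p = 0.00309) but the difference was -1.72 after median-ratio scaling and -1.79 without MFP replicate 2, and both ended the call. Stat3 (0.72, adjusted p = 0.0604), Nfkbiz (1.14, adjusted p = 0.0791), Cebpd (2.25, adjusted p = 0.0583) and Cebpb (0.68, adjusted p = 0.584) did not pass. The NF-kB inhibitor Nfkbia (0.09) and the receptors Il1r1 (-0.45), Il6ra (0.37) and Osmr (0.95) did not pass either, and the receptor Il17ra (-1.88, adjusted p = 0.0192) missed the limit on the fold.

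Between CD44high and CD44low cells, few of all 15348 genes passed, 16 in BM and 32 in LN. Among the 84 fitted genes of the lists above, 1 passed in BM and 2 in LN. In BM, Tlr2, the receptor for bacterial lipoproteins, was the only one of 84, with a rise of 2.15 (SE 0.23, adjusted p = 0.00491) that was 1.87 without BM CD44low replicate 2, which ended the call. Its level was 64.9 and 53.6 TPM in CD44high and 15.4 and 10.1 TPM in CD44low. Fits of only the BM groups and of only the LN groups called 0 of these genes and 0 of all genes. In LN, Il1rn (3.17, adjusted p = 0.0424) and Wfdc18 (3.13, adjusted p = 0.0215) passed in the main fit, and the replicate number as a block ended the call of Il1rn. Leaving out LN CD44high replicate 1 gave 2.75 and 2.76 and ended both calls, and so did leaving out several other single libraries. Nfkbiz differed by 1.67 (adjusted p = 0.44) in BM and -0.06 (adjusted p = 1) in LN.

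In Lung CD44low cells inducers and regulators changed in both directions. Compared to MFP, 5 of the 21 cytokines and receptors rose and 4 fell, and 6 of the 23 regulators rose and 5 fell, where 11.2% of all genes rose and 7.62% fell. Of the other antimicrobial, WAP-domain, S100 and receptor genes, 4 of 6, 2 of 5, 2 of 11 and 3 of 7 rose and 1 S100 gene fell. These are the fitted genes of 24, 21, 14 and 15 listed. Wfdc17 rose by 6.55 here and by at most 0.54 in every other group. It entered the fit through Lung CD44low, which fixed its call. Those that fell were Il1a (-4.36), Cd14 (-2.72), Lif (-2.65) and Tlr2 (-2.04) among the cytokines and receptors, and Elf3 (-5.11), Nfkbie (-3.08), Nfkb2 (-2.95), Nfkb1 (-2.30) and Ehf (-2.26) among the regulators, with adjusted p from 9.13e-07 to 0.0127. Cd14, Lif, Tlr2, Nfkbie, Nfkb2 and Nfkb1 are named here after their values were seen. Osmr, the oncostatin M receptor, rose by 6.10 (adjusted p = 5.93e-07) and Il6 by 4.93 (adjusted p = 0.000167) to 71.0 and 56.6 TPM. Osmr rose in Lung CD44high as well (5.14, adjusted p = 4.26e-06) and did not pass between the lung groups (-0.96, adjusted p = 0.0703). Cebpd rose by 7.01 (adjusted p = 6.3e-05), Cebpb by 5.76 (adjusted p = 0.000308) and Socs3 by 4.27 (adjusted p = 1.66e-05). Of the 11 other acute-phase genes, 5 rose and none fell, led by Serpina3n (7.36, adjusted p = 2.69e-08), Lbp (6.999, adjusted p = 8.89e-06) and Hp (6.57, adjusted p = 2.2e-06). The median of these 11 was 0.95, beside 0 over all genes. Slc22a17, described as an Lcn2 receptor, rose by 2.40 (adjusted p = 9.87e-06) to 4.08 and 4.49 TPM. Elf3 and Ehf were at 0 TPM in both Lung CD44low libraries. Compared to Lung CD44low, several of these genes were lower in Lung CD44high. Serpina3n fell by -7.91, Hp by -5.92, Cebpd by -5.60, Lbp by -4.96, Cebpb by -4.93, Il6 by -3.91 and Socs3 by -3.60 (adjusted p from 2.17e-08 to 0.00129). Fitting only the lung groups ended the call of Il6 (adjusted p = 0.0557). Ptx3, a long pentraxin, rose by 4.04 (adjusted p = 7.03e-06) and Il6ra by 3.29 (adjusted p = 0.000193). Over the 11 acute-phase genes, 4 fell and 1 rose in this comparison, where 8.8% and 2.49% of all genes did.

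**Figure D4:**
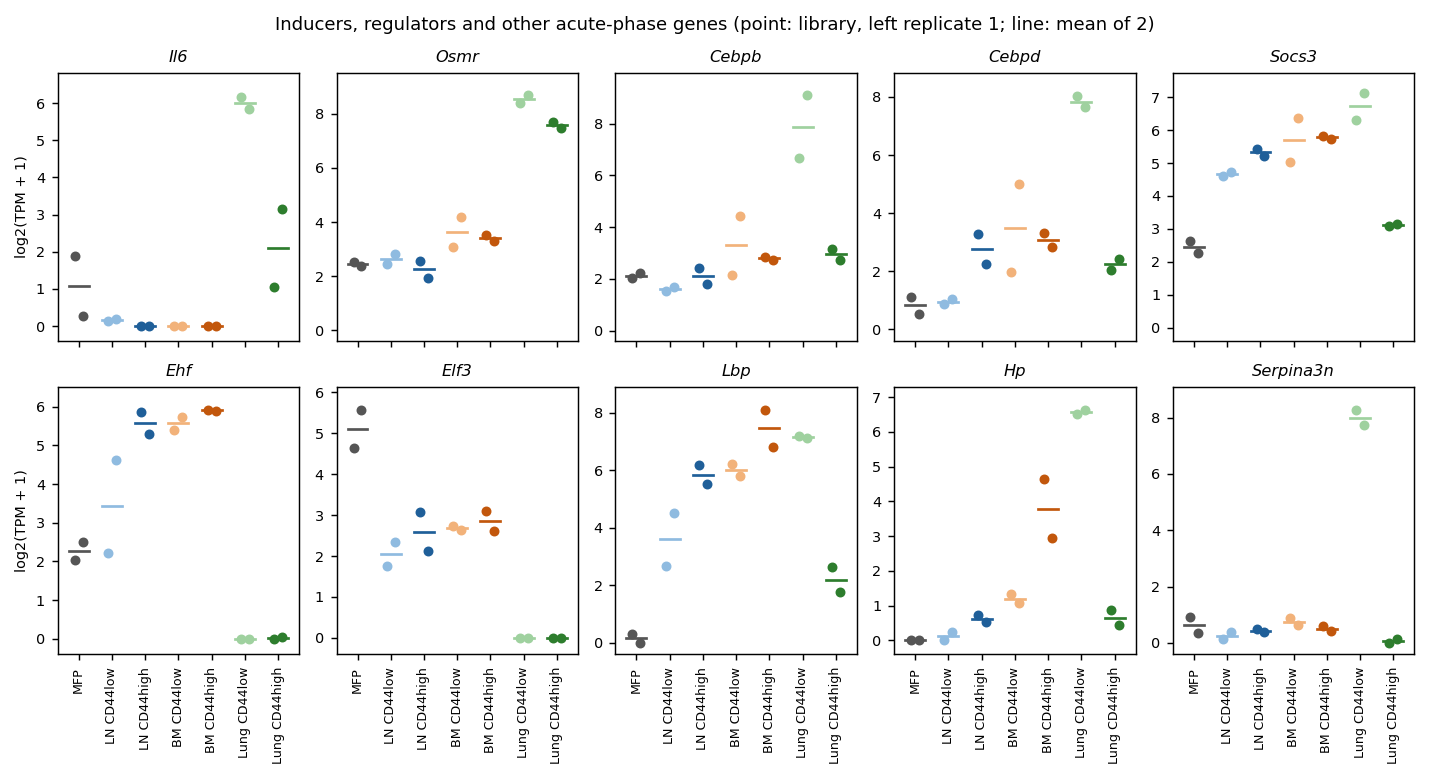
Inducers, regulators and other acute-phase genes in the 14 bulk libraries, as log2(TPM + 1) (y axis, own scale for each gene), by group (x axis), with a point for each library and a line for the mean of 2. Il6, Cebpb, Cebpd and Serpina3n are high in Lung CD44low, while Lbp is high in LN CD44high, both BM groups and Lung CD44low.

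For each of the 9 genes with at least 10 TPM somewhere, the genes with the most similar pattern were found by Pearson correlation of log2(TPM + 1) over the 14 libraries, among 10440 genes. These libraries share groups and are few, so the coefficients are descriptions. The 10 genes themselves were left out of this search and are given apart. Saa1, Saa2 and Saa3 were closest to each other (0.96 to 0.99), and among the other genes to complement factor B, Cfb, at 0.92, 0.90 and 0.93. Slpi was closest to the neutrophil chemokine Cxcl1 (0.98), with Plscr1 (0.94) and the growth factor Csf3 (0.92) next. Wfdc2 was closest to Lsr, a protein of tricellular junctions (0.996), to Kcnk1 (0.99) and to Epcam (0.99), which is itself near 0 in the lung libraries. Outside the set, Pigr and Ltf were both closest to Wif1, a secreted Wnt inhibitor (0.99 and 0.96), and they correlated with each other at 0.97. Lcn2 was closest to 1110008P14Rik (0.95) and Gmds (0.94), and S100a8 to Hsd11b1 (0.88). By Spearman correlation the closest gene was the same for Slpi and S100a8 and another for the other 7.

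In the single-cell libraries, a cell was kept if over 250 genes were detected and under 10% of its counts were mitochondrial, which left 1236 of 3623 barcodes in lungH, 348 of 2808 in lungL and 2562 of 3297 in lymphH. The columns carry no barcode sequence, so barcodes shared between libraries could not be counted, and doublets were not removed. With 1 library per group there is no test, and counts summed over cells are given per 10000 with exact Poisson 95% intervals, which cover counting error only. Total counts were 2210623 for lungH, 2220759 for lungL and 5287425 for lymphH, and a cell had a median of 557, 4011 and 585 counts. Epcam was at 1.77 per 10000 in lymphH, with 3 counts in lungH and 0 in lungL. The 12 epithelial genes together were at 10.9 per 10000 in lymphH, 4.37 in lungH and 1.62 in lungL, and the fibroblast genes at 0.132, 0.669 and 22.1.

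Lcn2 was 0.556 per 10000 in lymphH (294 counts, interval 0.494 to 0.623), 0.0946 in lungL (21 counts, 0.0585 to 0.145) and 0.0679 in lungH (15 counts, 0.038 to 0.112). It was thus 8.19 times higher in lymphH than in lungH (interval 4.89 to 14.8) and 5.88 times higher than in lungL (3.78 to 9.64). The ratio of lungL to lungH was 1.39 (0.685 to 2.91), while in bulk the mean TPM of Lung CD44low was 40.1 times that of Lung CD44high (275 and 130.4 against 3.63 and 6.49 TPM), so the bulk difference was far larger than the upper end of the single-cell interval. The 15 counts in lungH came from 6 cells, and as a mean of per-cell values Lcn2 was 0.156 in lungH, 0.0632 in lungL and 0.48 in lymphH, so the size of the fold and the order of the lung libraries depend on the measure. Wfdc2 was 1.97 per 10000 in lymphH (1044 counts, 1.86 to 2.10), 0.261 in lungL (58 counts) and 0.0905 in lungH (20 counts). In lungL, 10 cells held 87.9% of its counts. Slpi had another order, lowest in lymphH, with 1.67 in lungL (371 counts, 1.505 to 1.85), 0.746 in lungH (165 counts, 0.637 to 0.869) and 0.153 in lymphH (81 counts, 0.122 to 0.19). In bulk, Slpi was higher in LN CD44high (642 and 474 TPM) than in Lung CD44low (139.8 and 103 TPM), so that the bulk and single-cell libraries of the same label stood in opposite order for this gene. Epcam and Wfdc2 were higher in LN CD44high than in the lung in both kinds of library, but the sizes were unlike. Wfdc2 was 706 and 627 TPM in bulk LN CD44high and at most 0.39 TPM in the 4 lung libraries, while in single cells lymphH was 7.56 times lungL (5.80 to 10.03) and 21.8 times lungH (14.1 to 35.9). Slpi and these genes do not give the same order of the labels. Values per 10000 and TPM are on different scales, and whether the labels of the libraries bear on this was not tested.

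S100a8 was 0.588 per 10000 in lungH (130 counts, 0.491 to 0.698), 0.0811 in lungL (18 counts) and at 0 counts in lymphH, which allows up to 0.00567 per 10000. Its level in lungH was 7.26 times that in lungL (4.41 to 12.6) and at least 103.6-fold higher than in lymphH, taking the 130 counts as measured and 3 counts as the limit of lymphH. S100a9 was at 0 counts in all 3 libraries, as were Saa1, Saa2 and Ltf, which allows up to 0.0136 per 10000 in lungH. Saa3 had 3 counts in lungH, 0 in lungL and 2 in lymphH, and Pigr 4 counts in lymphH alone. Differences for these genes were not detectable at this depth.

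The counts came from few cells. In lymphH 366 of 2562 cells had a Wfdc2 count (14.3%, exact binomial 95% interval 12.95 to 15.7) and 134 had a Lcn2 count (5.23%, 4.40 to 6.16). Of the 134, 78 also had a Wfdc2 count. In lungL 76 of 348 cells had a Slpi count (21.8%, 17.6 to 26.6), and the 10 cells with the most held 48.3% of all Slpi counts. In lungH 74 of 1236 cells had a Slpi count (5.99%, 4.73 to 7.46), 59 had an S100a8 count (4.77%, 3.65 to 6.12) and 13 had both. Thinned to 500 counts per cell, which left out 288, 34 and 659 shallower cells of lungH, lungL and lymphH, the share with Slpi was 1.90%, 4.78% and 0.683% and that with Wfdc2 0.105%, 1.59% and 6.41%, in the order of the levels per 10000. In the barcodes that failed the filter, Slpi was at 0.904, 1.74 and 0.0992 and S100a8 at 0.752, 0.0261 and 0 per 10000 in lungH, lungL and lymphH. Wfdc2 in lymphH was lower there, at 1.34 (1.01 to 1.75), than in the kept cells. No cell type lacking these genes was defined in these lines, so the part of free RNA in the shares was not tested.

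**Figure D5:**
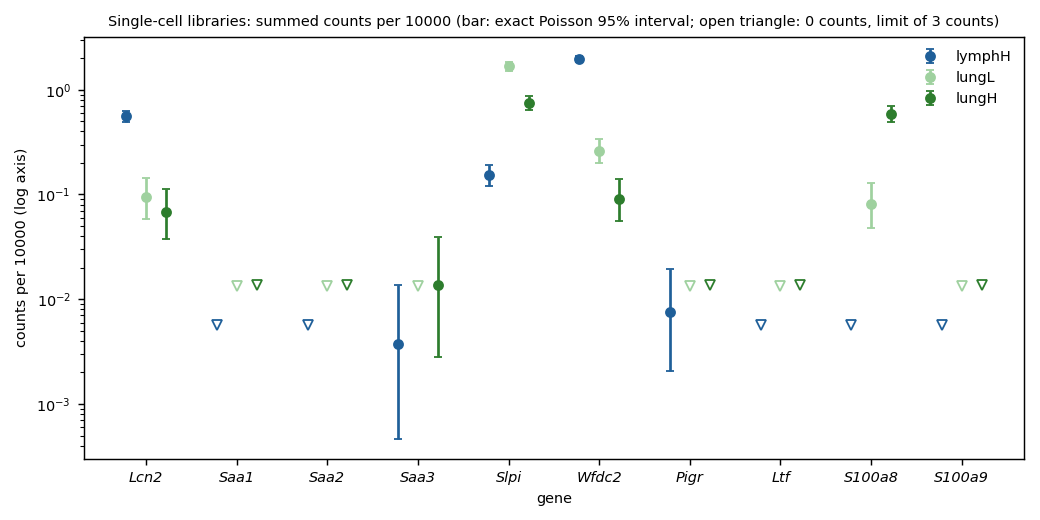
Counts per 10000 of the 10 genes in the 3 single-cell libraries (log y axis; bars, exact Poisson 95% intervals; open triangles, the limit of 3 counts for genes at 0 counts). Lcn2 and Wfdc2 are highest in lymphH, Slpi in lungL and S100a8 in lungH.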

How the data were processed

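The authors deposited TPM values for 14 bulk libraries, made with a modified SMART-seq2 protocol, STAR on mm10 and RSEM on GENCODE v21. The authors deposited whole-number counts per gene and barcode for 3 single-cell libraries, made with ddSeq and SureCell chemistry, Ddseeker and kallisto. The authors' comparisons used edgeR on counts that are not used here. The methods of the study state a minimum number of reads for the bulk samples. TPM keeps no read number, so the depth of each bulk library is unknown and no counting interval is given for low values. Gene symbols came from the single-cell row names, and positions and transcripts from GENCODE vM21.

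The 10 genes, the 7 pathway lists and the marker lists were chosen with earlier results of these data known. limma 3.58.1 (R 4.3.3; lmFit, then eBayes with an intensity trend) was run on log2(TPM + 1) of 15348 genes that reached 1 TPM in 2 or more libraries. The model had a mean for each of 7 groups and left 7 residual degrees of freedom, in 10 comparisons and 3 differences between organs. An exact permutation test of 2 against 2 libraries cannot go below 0.333 and was not used. On simulated data with 200 genes shifted by 3, 90.5% to 97.5% were recovered, with 1 to 8 false calls. These rates do not cover how the calls in the real data depend on single libraries and on the groups fitted, which is given below. Named pathway genes are, for each list and comparison, up to 4 called genes with the largest fold and no overlap, and 13 fixed regulators and receptors, and of these the text gives those that bear on the members. Neither replicates nor libraries are tied to a batch in the labels.

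Single-cell counts were summed over kept cells, and intervals (95%) and limits of 0 (3 counts) cover counting error only. Upstream sequences came from RefSeq (GRCm38.p6). Python 3.11.15, numpy 2.4.6, scipy 1.17.1 and Biopython were used. Alternatives were a pseudocount of 0.1, no filter or a filter at 5 TPM, median-ratio scaling, the replicate number as a block, fits of only the groups compared, each library left out, and for single cells more than 500 genes, a mitochondrial limit of 20%, all barcodes, means of per-cell values and thinning.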

Additional observations from a re-analysis of the deposited data

Results flagged for a closer look

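Lcn2 and Slpi were lower in CD44high than in CD44low cells of the lung and higher in those of LN and BM, with no overlap of libraries in any of the 3 organs. The CD44 difference of Lcn2 in lung was -9.76 on the log2 scale from that in LN and -6.73 from that in BM, and that of Slpi -4.53 and -5.09. These differences were not tested, since the genes were chosen with these levels known.

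Among the pathway genes, the CD44 difference in lung differed from that in LN for 27 of 84 fitted genes and from that in BM for 27, by an interaction contrast in limma (adjusted p under 0.05 and a log2 difference over 2), beside 1594 and 1329 of all 15348 genes. The named ones follow. For each gene the lung value minus that of LN comes first and minus that of BM second. The acute-phase proteins gave Lbp -7.22 and -6.40, Hp -6.42 and -8.51, Serpina3n -8.09 and -7.67, Ptx3 4.26 and 4.46. The cytokines and receptors gave Il6 -3.75 and -3.91, Il1rn -6.62 and -4.30, Il6ra 2.71 and 3.50, Il17re -6.63 and -5.59, and the regulators Cebpb -5.44 and -4.44, Cebpd -7.42 and -5.20, Socs3 -4.26 and -3.69, Bcl3 -3.43 and -3.03. The secreted WAP-family and chitinase-like proteins gave Wfdc17 -6.55 and -6.20, Wfdc21 -4.86 and -5.76, Chil1 -6.34 and -6.47, and the S100 and receptor genes S100a4 -4.83 and -5.50, S100a16 -3.85 and -5.48, Lrp1 -5.36 and -5.08, Lrp2 2.39 and 2.36. Past the threshold against LN alone were Wfdc18 at -3.58 and Nfkbia at 2.72, and against BM alone Nfkbiz at -3.08 and Tlr2 at -2.56. The CD44 difference of Tlr2 in BM minus that in LN was 2.23 (adjusted p = 0.0378), a call lost with median-ratio scaling and with the replicate number as a block. The lung lines had far lower summed levels of epithelial markers than the other lines, and Lung CD44low had high levels of fibroblast genes, and the part of this in these differences was not tested.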

How the results depend on the processing

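No difference of the 9 genes that passed both limits turned its sign under an alternative. Of those that did not pass, 1 turned under median-ratio scaling (Wfdc2 in LN CD44high against MFP, 0.18) and 8 with 1 library left out, for example Lcn2 in LN CD44low against MFP, from 0.03 to -1.60 without MFP replicate 2. Fitting only the groups compared, which leaves 2 residual degrees of freedom for 2 against 2 libraries, lowered many counts. It called 0, 0, 1, 4 and 2 of the 9 genes in LN CD44low, LN CD44high, BM CD44low, BM CD44high and Lung CD44high against MFP and 0 between the BM groups. It called 2, 8, 0 and 0 pathway genes in LN CD44low and BM CD44low against MFP and between the LN and between the BM groups, and 313, 660, 0 and 0 of all genes. A pseudocount of 0.1 gave 1430, 1876, 2055, 2195, 3286, 2666 and 3650 of all genes in LN CD44low, LN CD44high, BM CD44low, BM CD44high and Lung CD44high against MFP, between the lung groups and for lung against LN and BM. It gave 21, 30 and 34 pathway genes in LN CD44high, BM CD44low and Lung CD44high, 1 between the LN groups, and 5 of the 9 genes in BM CD44low. Without a filter, 1 of the 9 genes was called in LN CD44high against MFP and 1 pathway gene between the LN groups. For the CD44 difference of BM against that of LN, Tlr2 was the only pathway gene called, and 0 differed after median-ratio scaling and 0 with the replicate number as a block. The labels do not say whether the replicate numbers pair samples, and the main fit was unpaired. Over 21 pairs of groups the correlation of deviations was -0.194 to 0.168, with 3 pairs over 0.1. Such correlations cannot show whether libraries with the same number came from the same mouse. The study describes its CD44 comparison as one within single tumors. The replicate block ended the calls of Cebpd in BM CD44low, Lrp1 in Lung CD44high and Il1rn between the LN groups and no other call of a named pathway gene in the 10 comparisons between groups. For the differences between organs, whether the 27 genes called were the same ones under the block was not tested.

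Leaving out 1 library each moved the called counts of the 9 genes from 0 to 2 in LN CD44high, 0 to 3 in BM CD44low, 2 to 4 in Lung CD44high, 0 to 1 between the LN groups and 1 to 3 between the lung groups. The lowest came without MFP replicate 2 in LN CD44high and BM CD44low (0), also without LN CD44high replicate 1 (0), without MFP replicate 1 in Lung CD44high (2) and without Lung CD44low replicate 1 between the lung groups (1). For pathway genes the counts were 7 to 15 in LN CD44low, 13 to 22 in BM CD44high, 0 to 5 between the LN groups, 0 to 4 between the BM groups and 0 to 5 for BM against LN. For all genes they were 962 to 1781 in BM CD44low, 12 to 103 between the LN groups and 13 to 975 between the BM groups, the last without BM CD44low replicate 1. In single cells, Lcn2 in lungH was 0.0363 per 10000 with more than 500 genes and 0.156 as the mean of per-cell values. By that mean, Lcn2, Slpi, Wfdc2 and Pigr in lymphH were 0.48, 0.104, 1.78 and 0.00091. The causes were not tested. With 2 libraries per group and the depth of each unknown, values near 0 TPM are limited to the statement that they are low.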
